A study of Mus musculus with 17 samples.

Results

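Cd4, Cd8a, Cd8b1, Cd1d1, Themis, Arpp21, Ccr9 and Satb1 comprise the genes of the 2 T-cell coreceptors and further genes that are strongly transcribed at the CD4+CD8+ stage of thymocyte development. They were chosen with earlier results of these data known, and their probe sets were taken by symbol. Of the 45101 probe sets of the array, 29 carried one of these 8 symbols and no other. The 8 genes were among 18194 genes with at least 1 probe set of a single symbol. Where a gene had several probe sets, the brightest on average over the 17 arrays stood for it, and the others are given beside it. All 8 were among the 13756 genes that passed the filter on low signals.

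T cells arise in the thymus from precursors that carry neither CD4 nor CD8 (double negative, DN), pass through an immature CD8+ step to the CD4+CD8+ stage (double positive, DP), and then keep a single coreceptor. CD4 binds MHC class II and CD8 binds MHC class I, so that each coreceptor helps the T-cell receptor to read its own class of ligand. DP cells form the bulk of a normal thymus. They recombine the T-cell receptor alpha genes, present lipids on CD1d, respond to the chemokine CCL25 through CCR9, and undergo positive and negative selection.

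Thymus RNA was measured in 17 C57Bl/6 mice on Affymetrix GeneChip mouse genome arrays, 1 array per mouse. The lymphoma group was 8 Tcf1-/- mice (ΔVII/ΔVII, a germline deletion on both alleles) with a thymic lymphoma, recognized by an enlarged thymus. The Tcf1-/- group was 4 mice of the same genotype and similar age without a tumor, and the Tcf1+/- group was 5 control mice (wt/ΔVII), which carry the deletion on 1 allele. The ages and the phenotype of the tumor cells were not part of the sample labels. For all 3 groups the labels give homogenized thymus as the source of RNA, whereas the study's methods speak of thymocytes, and neither describes a sorting step, so that any cell type in the preparation contributed RNA.

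In RNA of mixed cells, fewer cells of a type and less RNA per cell cannot be told apart. A set of 4 arrays (lymphomas 1 and 2, and Tcf1+/- mice 1 and 2) had a narrower spread of log2 signals than the other 13 and is called the narrow set here (interquartile range 2.93 to 3.06, with 3.49 to 3.75 in the rest). The same 4 arrays had a larger excess of the 3' over the 5' probe set of Gapdh, a measure of RNA integrity (1.12 to 2.63, with -0.13 to 0.96 in the rest, on the log2 scale). T-lineage markers defined the tissue in every mouse: the mean log2 signal of 7 of them (Cd3e, Cd3d, Cd3g, Lat, Cd2, Thy1 and Bcl11b) was 12.35 to 12.62 in lymphomas, 12.04 to 12.32 in Tcf1-/- thymi and 12.62 to 12.87 in Tcf1+/- thymi. Of 9 B-cell markers, 7 rose in Tcf1-/- relative to Tcf1+/- thymi, and their mean was 6.71 to 8.05 in lymphomas, 9.59 to 11.11 in Tcf1-/- thymi and 7.31 to 7.77 in Tcf1+/- thymi. Of 12 macrophage markers, 11 rose in Tcf1-/- thymi, and their mean was 5.85 to 8.49 in lymphomas, 8.83 to 10.83 in Tcf1-/- thymi and 6.79 to 8.04 in Tcf1+/- thymi. Of 4 NK-cell markers, 3 rose in Tcf1-/- thymi, and their mean was 4.59 to 5.57 in lymphomas, 7.48 to 9.22 in Tcf1-/- thymi and 5.84 to 6.63 in Tcf1+/- thymi. Dendritic-cell and fibroblast markers also rose in Tcf1-/- thymi (5 of 8 and 5 of 9), and 4 of the 7 T-lineage markers fell. In lymphomas relative to Tcf1+/- thymi, 3 of 4 NK-cell, 4 of 8 dendritic-cell and 2 of 7 T-lineage markers fell. Relative to Tcf1-/- thymi, 8 of 9 B-cell, 10 of 12 macrophage and 4 of 4 NK-cell markers were lower in lymphomas. Markers of other cells thus moved with all 3 comparisons, and their part in the results was not tested.

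RefSeq start sites (build GRCm38.p6) were at hand for 5 of the 8 genes, Cd8a, Themis, Arpp21, Ccr9 and Satb1, in 18 windows of 250 bases before to 50 bases after a start. Tcf1 is deleted in these mice, and the 8 genes had lower means in both Tcf1-deficient groups than in Tcf1+/- thymi, although Arpp21 did not pass the test. Each window was therefore searched on both strands for the TCF/LEF motif CTTTGA, the RUNX motif TGTGGT and the E-box CANNTG. RUNX and E proteins are known regulators of coreceptor genes. The TCF/LEF motif was in 4 of the 18 windows and the RUNX motif in 3, all of them at Arpp21, and an E-box was in 17. Of all 32851 promoter windows of this length, 16.0% held the TCF/LEF motif, 16.8% the RUNX motif and 72.3% an E-box. Several windows of Arpp21, Themis and Satb1 overlap each other, so these counts are not of separate sequences. A window each of Cd8a, Themis and Ccr9 is shown, as genes that fell in both comparisons described next, and 1 of the 9 windows of Arpp21, as the only one that holds all 3 motifs. Capitals mark any of the 3 motifs as it reads on the printed strand, so that a motif of the other strand appears as its reverse complement. Only E-boxes are marked in Cd8a, Themis and Ccr9. In Arpp21 the RUNX motif (ACCACA), an E-box and the TCF/LEF motif (TCAAAG) follow in this order. A match is a run of letters and not a measured binding site.
Cd8a, chr6:71373177-71373476, plus strand: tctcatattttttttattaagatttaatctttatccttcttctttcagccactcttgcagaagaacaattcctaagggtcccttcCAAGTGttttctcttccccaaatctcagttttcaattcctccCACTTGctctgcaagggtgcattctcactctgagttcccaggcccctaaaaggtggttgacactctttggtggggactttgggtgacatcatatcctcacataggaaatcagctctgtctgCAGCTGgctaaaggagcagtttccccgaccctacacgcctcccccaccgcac
Themis, chr10:28668110-28668409, plus strand: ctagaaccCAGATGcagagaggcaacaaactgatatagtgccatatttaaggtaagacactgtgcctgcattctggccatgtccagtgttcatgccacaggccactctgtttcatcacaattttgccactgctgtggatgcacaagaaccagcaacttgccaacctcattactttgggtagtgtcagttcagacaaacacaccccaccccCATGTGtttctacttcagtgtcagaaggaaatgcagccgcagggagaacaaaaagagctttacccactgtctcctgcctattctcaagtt
Ccr9, chr9:123766961-123767260, plus strand: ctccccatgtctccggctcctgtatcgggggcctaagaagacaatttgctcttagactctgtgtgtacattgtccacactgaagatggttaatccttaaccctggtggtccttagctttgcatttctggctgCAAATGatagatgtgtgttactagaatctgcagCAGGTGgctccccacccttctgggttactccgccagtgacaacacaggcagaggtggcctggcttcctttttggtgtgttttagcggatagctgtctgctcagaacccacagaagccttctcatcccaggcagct
Arpp21, chr9:112233673-112233972, minus strand: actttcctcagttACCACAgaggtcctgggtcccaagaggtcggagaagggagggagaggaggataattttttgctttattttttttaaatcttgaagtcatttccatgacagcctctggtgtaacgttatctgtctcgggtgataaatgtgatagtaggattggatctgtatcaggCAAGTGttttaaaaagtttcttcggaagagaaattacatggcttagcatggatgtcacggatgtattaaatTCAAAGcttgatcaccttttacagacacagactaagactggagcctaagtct

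The coreceptor genes were lower in both groups of Tcf1-deficient mice than in Tcf1+/- thymi. Compared with Tcf1+/- thymi, lymphomas had 9.91-fold less Cd4, 7.44-fold less Cd8a and 9.37-fold less Cd8b1 signal. Tcf1-/- thymi without a tumor had 6.05-fold less Cd4, 3.89-fold less Cd8a and 5.34-fold less Cd8b1 signal than Tcf1+/- thymi. On the brightest probe set of each, no Tcf1-deficient mouse reached the lowest Tcf1+/- mouse for any of the 3 genes. On other probe sets of Cd4 and Cd8a some did, such as lymphoma 5 on a probe set of Cd8a (12.04, with 12.01 in the lowest Tcf1+/- mouse). Fold changes and adjusted p-values are from limma fits of each pair of groups over all 13756 genes, with Benjamini-Hochberg adjustment, and a gene is said to have fallen or risen where the adjusted p was under 0.05.

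Cd4 encodes the coreceptor of MHC class II-restricted T cells. Its log2 signal in lymphomas 1 to 8 was 7.52, 7.29, 7.84, 9.15, 10.87, 7.29, 7.08 and 7.36. The 4 Tcf1-/- thymi had 9.28, 8.42, 8.77 and 8.58, and the 5 Tcf1+/- thymi had 11.04, 11.26, 11.40, 11.61 and 11.49. Of the 8 lymphomas, 6 lay below every Tcf1-/- thymus, while lymphoma 5 (10.87) lay above all of them and just under the lowest Tcf1+/- mouse (11.04). Cd4 fell by 3.31 on the log2 scale in lymphomas (SE 0.54, adjusted p = 0.00157) and fell by 2.60 in Tcf1-/- thymi (SE 0.20, adjusted p = 7.11e-05) relative to Tcf1+/- thymi, with no overlap of values in either comparison. The exact two-sided permutation test of the difference of means gave p = 0.000777 for lymphomas and p = 0.00794 for Tcf1-/- thymi, the smallest values that these group sizes allow.

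Cd8a encodes the alpha chain of CD8, which is found in both forms of this coreceptor. Its log2 signal in lymphomas 1 to 8 was 10.74, 9.56, 10.06, 11.97, 10.92, 10.22, 6.57 and 10.70. The Tcf1-/- thymi had 11.25, 11.29, 11.47 and 10.13, and the Tcf1+/- thymi had 12.77, 13.03, 13.04, 13.05 and 13.05. Lymphoma 7 stood far below the next lymphoma, lymphoma 2, while the Tcf1+/- mice spanned 0.29. Cd8a fell by 2.89 in lymphomas (SE 0.64, adjusted p = 0.00965) and fell by 1.96 in Tcf1-/- thymi (SE 0.25, adjusted p = 0.000806), again without overlap with the Tcf1+/- group. With all 17 arrays in a single fit, which shares 1 estimate of the spread over the 3 groups, the call in Tcf1-/- thymi was lost (adjusted p = 0.0922).

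Cd8b1 encodes the beta chain of CD8, which thymocytes and conventional CD8 T cells carry. Its log2 signal in lymphomas 1 to 8 was 9.73, 8.57, 11.27, 12.25, 11.37, 9.96, 9.44 and 10.12. The Tcf1-/- thymi had 11.62, 11.36, 11.34 and 10.28, and the Tcf1+/- thymi had 12.72, 13.11, 14.05, 13.95 and 14.01. Lymphoma 4 (12.25) was the closest to the lowest control (12.72), and lymphoma 2 (8.57) was the lowest of all mice. Cd8b1 fell by 3.23 in lymphomas (SE 0.52, adjusted p = 0.00157) and fell by 2.42 in Tcf1-/- thymi (SE 0.35, adjusted p = 0.00149).

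**Figure D1:**
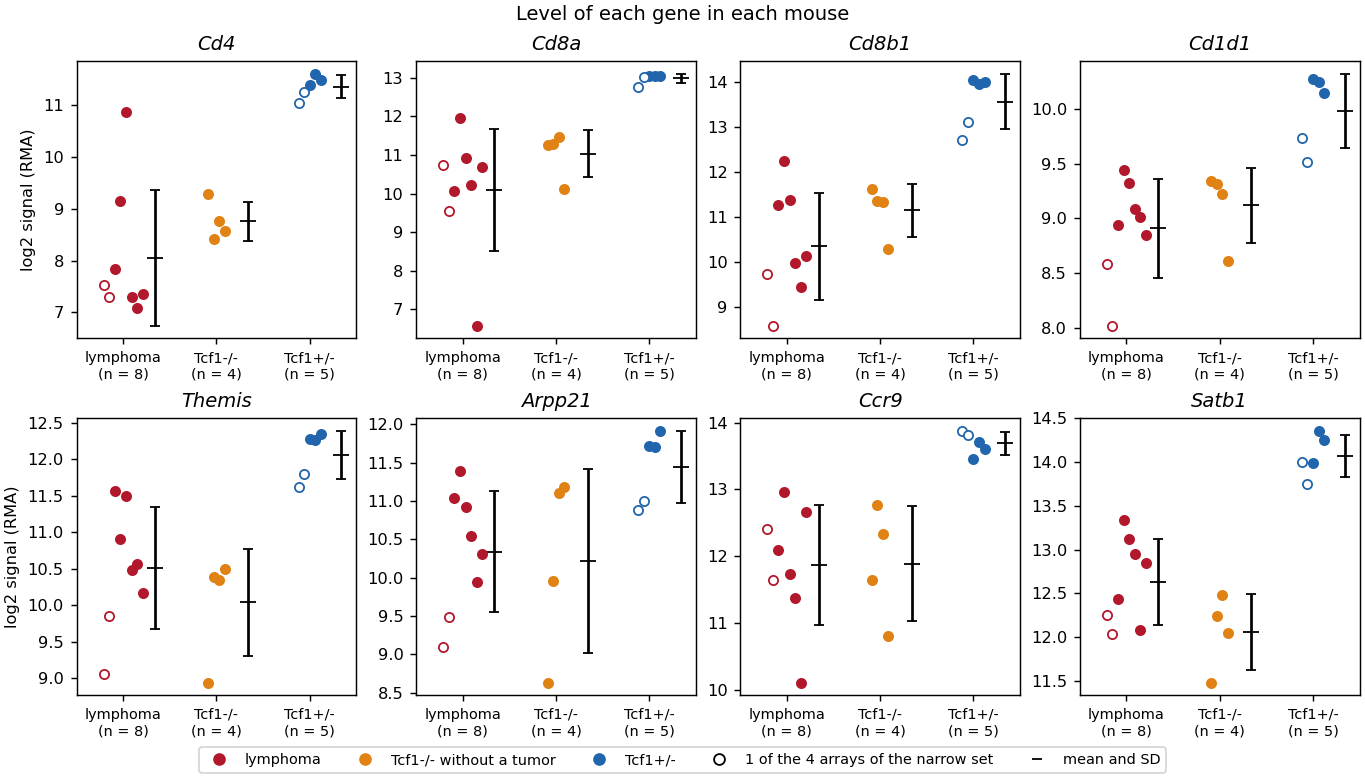
The log2 signal (y axis) of each of the 8 genes is plotted for each mouse, for lymphomas (red, n = 8), Tcf1-/- thymi without a tumor (orange, n = 4) and Tcf1+/- thymi (blue, n = 5), with the group mean and SD as black bars and open circles for the 4 arrays of the narrow set. Arpp21 is the only gene in which Tcf1-deficient mice overlap the Tcf1+/- mice. There, no filled Tcf1-deficient circle reaches a filled Tcf1+/- circle, and no open one reaches an open one.

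The genes of lipid presentation, receptor signaling, migration and chromatin that mark the DP stage were lower as well: the differences of Cd1d1, Themis, Ccr9 and Satb1 ranged from -1.82 to -1.07 in lymphomas and from -2.02 to -0.86 in Tcf1-/- thymi, and all 4 genes passed the test in both comparisons. Cd1d1 encodes the MHC class I-like molecule with which DP thymocytes present lipids to developing NKT cells. Its log2 signal ranged over 8.02, 8.97 and 9.44 in lymphomas (lowest, median and highest), was 9.34, 9.31, 9.22 and 8.61 in Tcf1-/- thymi, and was 9.73, 9.51, 10.27, 10.24 and 10.14 in Tcf1+/- thymi. The decrease was the smallest among the 8 genes in both comparisons, at -1.07 in lymphomas (SE 0.23, adjusted p = 0.00748) and -0.86 in Tcf1-/- thymi (SE 0.22, adjusted p = 0.0246). In Tcf1-/- thymi this call was lost on leaving out any one of Tcf1-/- replicates 3 and 4 or Tcf1+/- replicates 3, 4 and 5 (adjusted p of 0.0531 to 0.0617). Markers of B cells, macrophages and dendritic cells rose in Tcf1-/- thymi, and the part of those cells in the level of Cd1d1 was not tested.

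Themis encodes a regulator of T-cell receptor signaling that thymocytes need for positive selection. Its signal was 9.06, 10.52 and 11.57 in lymphomas (lowest, median and highest), 8.94, 10.38, 10.34 and 10.49 in Tcf1-/- thymi, and 11.62, 11.79, 12.28, 12.26 and 12.35 in Tcf1+/- thymi. Lymphomas 3 and 5 approached the lowest control, and Tcf1-/- replicate 1 was the lowest of all mice. Themis fell by 1.54 in lymphomas (SE 0.36, adjusted p = 0.013) and fell by 2.02 in Tcf1-/- thymi (SE 0.32, adjusted p = 0.00226).

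Ccr9 encodes the receptor for CCL25, the chemokine of the thymic epithelium. Its signal was 10.11, 11.92 and 12.96 in lymphomas (lowest, median and highest), 11.64, 12.77, 12.34 and 10.81 in Tcf1-/- thymi, and 13.88, 13.82, 13.45, 13.71 and 13.60 in Tcf1+/- thymi. Lymphoma 7, the lowest for Cd4 and Cd8a, was also the lowest for Ccr9. Ccr9 fell by 1.82 in lymphomas (SE 0.37, adjusted p = 0.00621) and fell by 1.80 in Tcf1-/- thymi (SE 0.34, adjusted p = 0.00541). Ccr9 is also a marker of plasmacytoid dendritic cells. Of the other 5 tested markers of that cell, Siglech (1.36) and Bst2 (1.39) rose in Tcf1-/- thymi, while in lymphomas Siglech fell by 0.74 and Klk1 rose by 0.87. Over the list with Ccr9 the mean was 8.13 to 8.98 in lymphomas, 8.53 to 9.38 in Tcf1-/- thymi and 8.51 to 8.81 in Tcf1+/- thymi, and the part of these cells in the result was not tested.

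Satb1 encodes a chromatin organizer that is abundant in thymocytes. Its signal was 12.04, 12.64 and 13.34 in lymphomas (lowest, median and highest), 11.48, 12.24, 12.48 and 12.05 in Tcf1-/- thymi, and 14.00, 13.75, 13.99, 14.36 and 14.25 in Tcf1+/- thymi. It fell by 1.44 in lymphomas (SE 0.23, adjusted p = 0.00153) and fell by 2.01 in Tcf1-/- thymi (SE 0.22, adjusted p = 0.000311). The highest lymphoma (13.34) and the highest Tcf1-/- thymus (12.48) were both below the lowest Tcf1+/- mouse (13.75).

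Arpp21, a cAMP-regulated phosphoprotein gene that is strongly transcribed in DP thymocytes, was the exception. Its signal was 9.09, 10.42 and 11.39 in lymphomas (lowest, median and highest), 8.63, 9.96, 11.10 and 11.19 in Tcf1-/- thymi, and 10.89, 11.00, 11.72, 11.71 and 11.91 in Tcf1+/- thymi. Lymphomas 3, 4 and 5 and Tcf1-/- replicates 3 and 4 lay within the range of the controls. The lowest controls (10.89 and 11.00) were those of the narrow set. These lymphomas and Tcf1-/- thymi, all outside that set, lay below the remaining controls (11.71 to 11.91). Within the narrow set, lymphomas 1 and 2 (9.09 and 9.49) lay below both controls, so that within each set of arrays there was no overlap. The difference from Tcf1+/- thymi was -1.11 in lymphomas (SE 0.36, adjusted p = 0.0597) and -1.23 in Tcf1-/- thymi (SE 0.49, adjusted p = 0.136), and neither passed the test. With the mouse number as a block over the 5 numbers that lymphoma and control mice share, which leaves out lymphomas 6 to 8, the first was -1.06 and passed (adjusted p = 0.0264), against an adjusted p of 0.213 for the same 10 mice without the block. Another probe set of Arpp21 fell by 1.04 in lymphomas (adjusted p = 0.0176) and fell by 2.17 in Tcf1-/- thymi (adjusted p = 0.00264), so that the call of this gene depends on the probe set.

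In total 7 of the 8 genes fell in lymphomas and 7 in Tcf1-/- thymi, and these were the same 7 genes. Of all genes tested, 4.21% fell and 8.49% rose in lymphomas relative to Tcf1+/- thymi, and 4.70% fell and 10.1% rose in Tcf1-/- thymi. The values of the same 7 genes lay below every Tcf1+/- mouse in all lymphomas and in all Tcf1-/- thymi, which held for 1.90% of all genes in lymphomas and 6.11% in Tcf1-/- thymi. The median difference over the 8 genes was -1.68 in lymphomas and -1.98 in Tcf1-/- thymi, beside 0.06 and -0.01 over all genes tested. Both comparisons share the 5 Tcf1+/- mice. The 8 genes, and the gene lists below, were chosen with earlier results of these data known, so the shares of all genes are a background and not a test. By the Mann-Whitney U test adjusted over all genes, none of the 8 passed in Tcf1-/- thymi (7 with adjusted p = 0.0917, the lowest that 4 and 5 mice gave), and 7 had an unadjusted p under 0.05.

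The 21 further probe sets had lower means in both groups of Tcf1-deficient mice than in Tcf1+/- thymi, and 16 of them fell in lymphomas and 14 in Tcf1-/- thymi. All 5 probe sets of Cd8a and both of Cd1d1 fell in each comparison. The second probe set of Cd4 had 4.78, 5.26, 6.00, 5.08, 5.86, 4.69, 4.84 and 5.04 in lymphomas 1 to 8, 5.95, 5.73, 5.61 and 6.17 in Tcf1-/- thymi, and 5.92, 5.73, 10.08, 9.29 and 9.67 in Tcf1+/- thymi. Tcf1+/- replicates 1 and 2, both of the narrow set, thus lacked the high signal of the other 3 controls. On this probe set Cd4 was called in lymphomas (-2.94, SE 0.68, adjusted p = 0.0119) but not in Tcf1-/- thymi (-2.28, SE 0.90, adjusted p = 0.135), and without the narrow set the differences were -4.43 in lymphomas and -3.82 in Tcf1-/- thymi.

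Within the narrow set, all 8 genes were lower in the 2 lymphomas than in the 2 Tcf1+/- mice, with differences from -3.76 for Cd8b1 to -1.32 for Cd1d1. Without the narrow set 6 genes fell in lymphomas, since Cd8a (-2.97, adjusted p = 0.0734) and Ccr9 (-1.77, adjusted p = 0.062) no longer passed and Arpp21 did (-1.09, adjusted p = 0.0399), while the count for Tcf1-/- thymi stayed at 7. Y-linked transcripts, here 3 genes, were high in 2 of 8 lymphoma mice, 4 of 4 Tcf1-/- mice and 4 of 5 Tcf1+/- mice. Adding their mean to the fit left 4 genes called lower in lymphomas (Cd4, Cd8b1, Ccr9 and Satb1) and 7 in Tcf1-/- thymi.

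**Figure D2:**
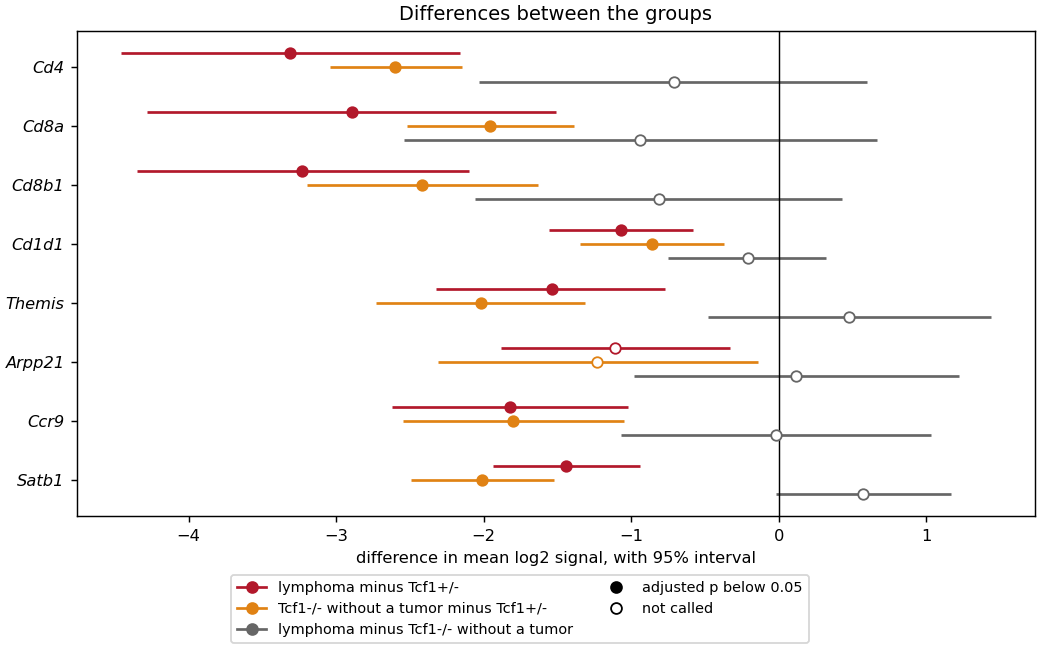
Differences in mean log2 signal (x axis) with 95% intervals are plotted for the 8 genes, for lymphoma minus Tcf1+/- (red), Tcf1-/- without a tumor minus Tcf1+/- (orange) and lymphoma minus Tcf1-/- without a tumor (grey), with filled symbols for an adjusted p below 0.05. Filled symbols occur only in the 2 comparisons with Tcf1+/- thymi, and every grey interval includes 0.

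Between lymphomas and tumor-free Tcf1-/- thymi none of the 8 genes passed, while 8.35% of all genes were lower and 6.34% higher in lymphomas. None of the 8 had an unadjusted p under 0.05 by limma (lowest 0.059, for Satb1) or by the exact Mann-Whitney U test. The intervals were wide for the coreceptors: the difference was -0.71 for Cd4 (95% interval -2.03 to 0.60), -0.94 for Cd8a (-2.54 to 0.67) and -0.81 for Cd8b1 (-2.06 to 0.43). It was -0.21 for Cd1d1 (-0.75 to 0.32), 0.48 for Themis (-0.48 to 1.44), 0.12 for Arpp21 (-0.98 to 1.22), -0.02 for Ccr9 (-1.07 to 1.03) and 0.57 for Satb1 (-0.02 to 1.17). The mean was thus lower in lymphomas for 5 genes, the 3 coreceptor genes among them, and higher for 3. The narrow set held lymphomas 1 and 2 but no Tcf1-/- array. Without it the differences kept their signs, at -0.50 for Cd4, -0.96 for Cd8a, -0.41 for Cd8b1 and -0.01 for Cd1d1. They were 0.83 for Themis, 0.47 for Arpp21, -0.07 for Ccr9 and 0.73 for Satb1. Without lymphoma 5 the difference of Cd4 was -1.12 and passed the test (adjusted p = 0.0499). The second probe set of Arpp21 exceeded the Tcf1-/- level in lymphomas by 1.13 (SE 0.35, adjusted p = 0.0439), the only one of the 21 further probe sets to pass.

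The SD over the 8 lymphomas was larger than that over the 5 Tcf1+/- mice for all 8 genes, and larger than that over the 4 Tcf1-/- thymi for 7, all but Arpp21. It was 1.59 for Cd8a in lymphomas, with 0.61 in Tcf1-/- thymi and 0.12 in Tcf1+/- thymi. It was 1.31 for Cd4 in lymphomas, with 0.38 in Tcf1-/- thymi and 0.22 in Tcf1+/- thymi, and 1.20 for Cd8b1 in lymphomas, with 0.59 and 0.62. The median SD of all genes was 0.40 in lymphomas, 0.26 in Tcf1-/- thymi and 0.31 in Tcf1+/- thymi. Ranked by SD over the lymphomas, Cd8a stood at the 98.7th percentile of all genes, Cd4 at the 97th and Cd8b1 at the 95.6th, and Cd1d1, the least variable of the 8, at the 58.3rd. The first 2 of these ranks rested on 1 mouse each. Without lymphoma 7 the SD of Cd8a was 0.77 (85th percentile), and without lymphoma 5 that of Cd4 was 0.70 (83.3rd percentile), while the SD of Cd8b1 was 0.99 to 1.29 with any 1 lymphoma left out. Among Tcf1+/- mice the SD of Cd8b1 was 0.05 without the narrow set. In limma's fit of the absolute deviations from the group median, lymphomas against Tcf1+/- mice, none of the 8 genes passed (adjusted p of 0.871 to 0.978), 2 had an unadjusted p under 0.05 (Ccr9 and Satb1), and 0.0363% of all genes passed. In simulated data this fit made no calls even for genes that had been given a larger SD. That SD was enlarged by a fixed factor, unlike the varied SDs here, so the lack of a call does not settle whether the spread of these genes differs. The SDs are therefore a description.

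**Figure D3:**
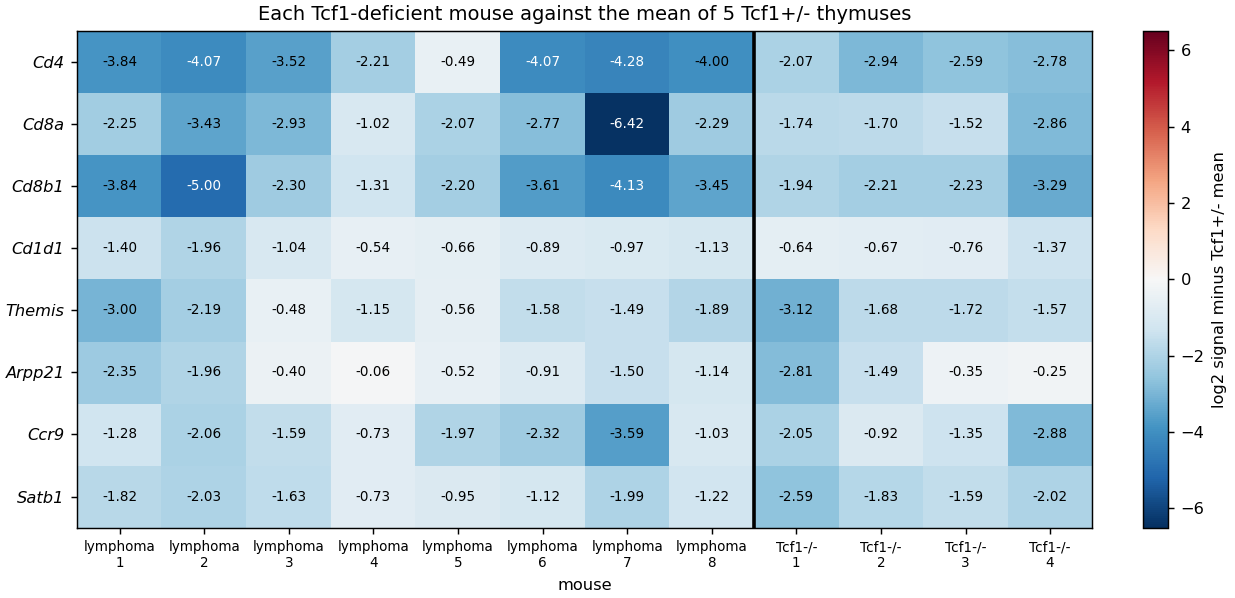
Each cell gives the log2 signal of a gene (row) in a Tcf1-deficient mouse (column) minus the mean of the 5 Tcf1+/- mice, with lymphomas on the left and Tcf1-/- thymi without a tumor on the right, and with deeper blue for lower values. The deepest cell is Cd8a in lymphoma 7, at -6.42, and the one nearest to 0 is Arpp21 in lymphoma 4, at -0.06.

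The median difference from the Tcf1+/- mean over the 8 genes was smallest in lymphomas 5 (-0.80) and 4 (-0.88) and largest in lymphoma 7 (-2.79). The Tcf1-/- thymi had medians of -2.06, -1.69, -1.56 and -2.40. On the brightest probe set of each gene, lymphoma 5 had Cd4 at -0.49, Cd8a at -2.07 and Cd8b1 at -2.20. Other probe sets gave another order for this mouse: its signal on the second probe set of Cd4 was 5.86, with 9.29 to 10.08 in Tcf1+/- mice 3 to 5, and on another probe set of Cd8a it was 12.04, within the 12.01 to 12.79 of the Tcf1+/- mice. Lymphoma 4 had the smallest deficits of Cd8a (-1.02) and Cd8b1 (-1.31), and its Cd4 was at -2.21. Lymphomas 1, 2, 3, 6, 7 and 8 had Cd4 differences between -4.28 and -3.52. Lymphoma 7 had Cd8a at -6.42 and Cd8b1 at -4.13. Lymphoma 3 had Themis at -0.48 and Arpp21 at -0.40, while its Cd4 was at -3.52. Its Themis signal (11.57) was still below that of every Tcf1+/- mouse (lowest 11.62). The differences above are from the mean of all 5 Tcf1+/- mice. Against only the Tcf1+/- mice outside the narrow set, lymphoma 3 had Themis at -0.72 and Arpp21 at -0.74. The median over the 8 genes was then -0.99 in lymphoma 5 and -0.98 in lymphoma 4.

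**Figure D4:**
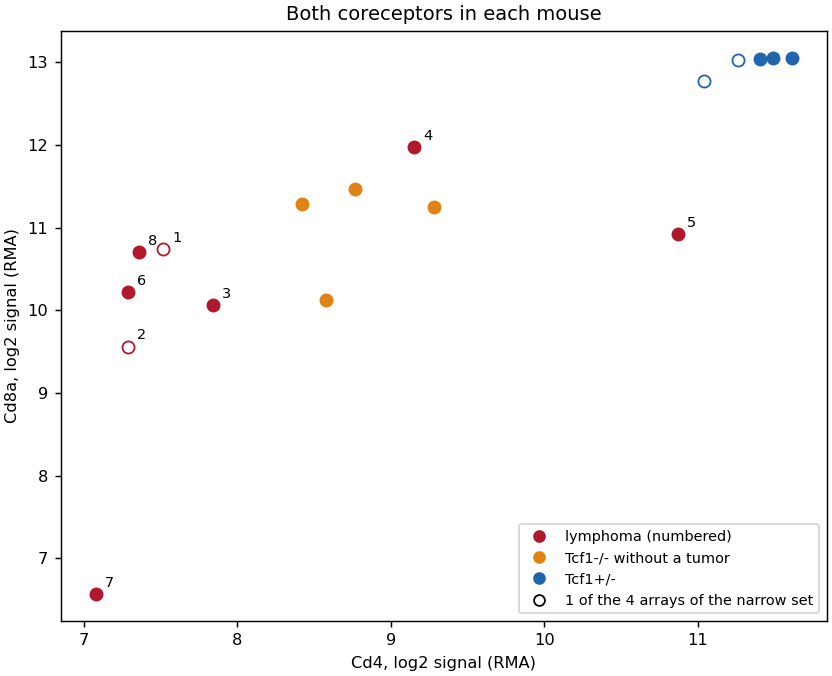
The log2 signal of Cd8a (y axis) is plotted against that of Cd4 (x axis) for each mouse, with lymphomas in red and numbered, Tcf1-/- thymi in orange, Tcf1+/- thymi in blue, and open circles for the 4 arrays of the narrow set. The 5 Tcf1+/- mice lie together at the upper right, lymphomas 4 and 5 are the nearest to them, and lymphoma 7 lies alone at a Cd8a signal of 6.57.

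Across the 8 lymphomas, 27 of the 28 pairs of these genes had a positive Pearson correlation, with a median r of 0.58 and a range of -0.09 to 0.91. After Benjamini-Hochberg adjustment over the 28 pairs none passed 0.05 by r (lowest adjusted p = 0.0523) or by Spearman's rho (lowest adjusted p = 0.0869), and 10 pairs by r and 12 by rho had an unadjusted exact permutation p under 0.05. The highest was Cd8a with Ccr9 (r = 0.91, exact permutation p = 0.00387, adjusted p = 0.0523; rho = 0.74, p = 0.0458, adjusted p = 0.107). It fell to r = 0.46 without lymphomas 4 and 7, the ones farthest from the median of Cd8a, and so rests on them, while it was 0.91 in the 6 lymphomas outside the narrow set. Next were Arpp21 with Themis (r = 0.88, exact permutation p = 0.00424, adjusted p = 0.0523; rho = 0.86, p = 0.0107, adjusted p = 0.0869) and Arpp21 with Cd8b1 (r = 0.87, exact permutation p = 0.00561, adjusted p = 0.0523; rho = 0.88, p = 0.00724, adjusted p = 0.0869). Without the 2 lymphomas farthest from the median of Themis or of Cd8b1, r was 0.76 and 0.79. In the 6 lymphomas outside the narrow set it was 0.65 for Arpp21 with Themis and 0.97 for Arpp21 with Cd8b1. The genes of the 2 chains of CD8 correlated at r = 0.59 (exact permutation p = 0.112, adjusted p = 0.224; rho = 0.76, p = 0.0368, adjusted p = 0.103), and Cd4 with Cd8a at r = 0.50 (exact permutation p = 0.189, adjusted p = 0.277; rho = 0.79, p = 0.0279, adjusted p = 0.0869). Within the 6 lymphomas outside the narrow set, all 28 pairs were positive, with a median r of 0.66.

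The genes most like each of the 8 over the same lymphomas, taken as the 2 highest Pearson r among all genes tested, were found as the extremes of 13756 genes over 8 mice and are given as a description. For Themis they were Rag2, a subunit of the recombinase of antigen receptor genes (r = 0.985), and Cep57l1 (r = 0.970). For Cd8b1 they were N4bp2 (r = 0.971) and Cd44, an adhesion receptor of early precursors and activated T cells (r = 0.968), and the signal of Cd44 ranged from 4.79 to 11.09 among lymphomas. For Cd4 they were Map3k20 (r = 0.982) and Insl5 (r = 0.974), for Cd8a Ero1b (r = 0.967) and Cd40 (r = 0.965), for Cd1d1 Scarb2 (r = 0.986) and Septin2 (r = 0.984), for Arpp21 Glipr1 (r = 0.982) and Sub1 (r = 0.970), for Ccr9 Igsf23 and H2ax (r = 0.933 each), and for Satb1 the transcripts 2700049A03Rik (r = 0.978) and BC005624 (r = 0.965).

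Of 13 further genes associated with the DP stage, 10 fell in lymphomas and 8 in Tcf1-/- thymi relative to Tcf1+/- thymi, and none rose. Beside this, 4.21% of all genes fell in lymphomas and 4.70% in Tcf1-/- thymi. Rag1, which with Rag2 forms the recombinase, fell by 2.82 in lymphomas (SE 0.87) and fell by 2.11 in Tcf1-/- thymi (SE 0.42). Rag2 fell by 2.19 in lymphomas (SE 0.59) and fell by 2.02 in Tcf1-/- thymi (SE 0.50). Bcl6, a transcriptional repressor, fell by 2.42 in lymphomas (SE 0.45) and fell by 2.15 in Tcf1-/- thymi (SE 0.25). Plxnd1, a semaphorin receptor that guides thymocytes, fell by 2.25 in lymphomas (SE 0.41) and fell by 1.90 in Tcf1-/- thymi (SE 0.25). Slamf1, a receptor of lymphocyte contacts, fell by 2.25 in lymphomas (SE 0.48) and fell by 1.50 in Tcf1-/- thymi (SE 0.27). Cd6, a surface glycoprotein of T cells, fell by 1.45 in lymphomas (SE 0.42) and fell by 1.93 in Tcf1-/- thymi (SE 0.26). The median difference of the list was -1.45 in lymphomas and -1.50 in Tcf1-/- thymi. The count in lymphomas was 5 on leaving out Tcf1+/- replicate 4 or 5, 6 without Tcf1+/- replicate 3, and 2 with adjustment for Y-linked signal, and the count in Tcf1-/- thymi was 5 in a fit of all 17 arrays together.

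Genes of the earlier DN stage differed between the 2 Tcf1-deficient groups. Of 15, 11 rose in Tcf1-/- thymi and none fell (median difference 1.93), while 3 rose in lymphomas and none fell (median 0.06). Beside this, 10.1% of all genes rose in Tcf1-/- thymi and 8.49% in lymphomas. Dtx1, a Notch target, Il2ra, the CD25 chain that marks DN cells, and Notch3 rose in lymphomas, by 3.82 (SE 0.30), 2.58 (SE 0.71) and 1.87 (SE 0.32), and in Tcf1-/- thymi, by 2.99 (SE 0.36), 2.75 (SE 0.40) and 1.30 (SE 0.30). Mef2c and Hhex, transcription factors of early progenitors, rose in Tcf1-/- thymi by 4.37 (SE 0.54) and 3.22 (SE 0.35), and Lyl1 by 2.75 (SE 0.34). In direct comparison 7 of the 15 were lower in lymphomas than in Tcf1-/- thymi and 1, Dtx1, was higher, by 0.83 (SE 0.26). The differences were -4.07 for Mef2c (SE 0.44), -3.49 for Hhex (SE 0.28), -3.04 for the interleukin-7 receptor gene Il7r (SE 0.49), -2.55 for the growth factor receptor gene Kit (SE 0.48) and -1.82 for Spi1 (SE 0.36). The 7 became 3 with the replicate block or with adjustment for Y-linked signal, and Dtx1 did not pass on leaving out any 1 mouse other than lymphoma 4. None of the 13 DP genes passed in that comparison, in which 8.35% of all genes were lower and 6.34% higher in lymphomas. Mef2c and Spi1 are also expressed by B cells and macrophages, whose markers were high in Tcf1-/- thymi. Flt3, which rose in Tcf1-/- thymi as well (1.43, SE 0.27), is itself among the dendritic-cell markers used here. The part of those and other cells was not tested for any of the DN genes, so that these genes need not report DN thymocytes alone.

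**Figure D5:**
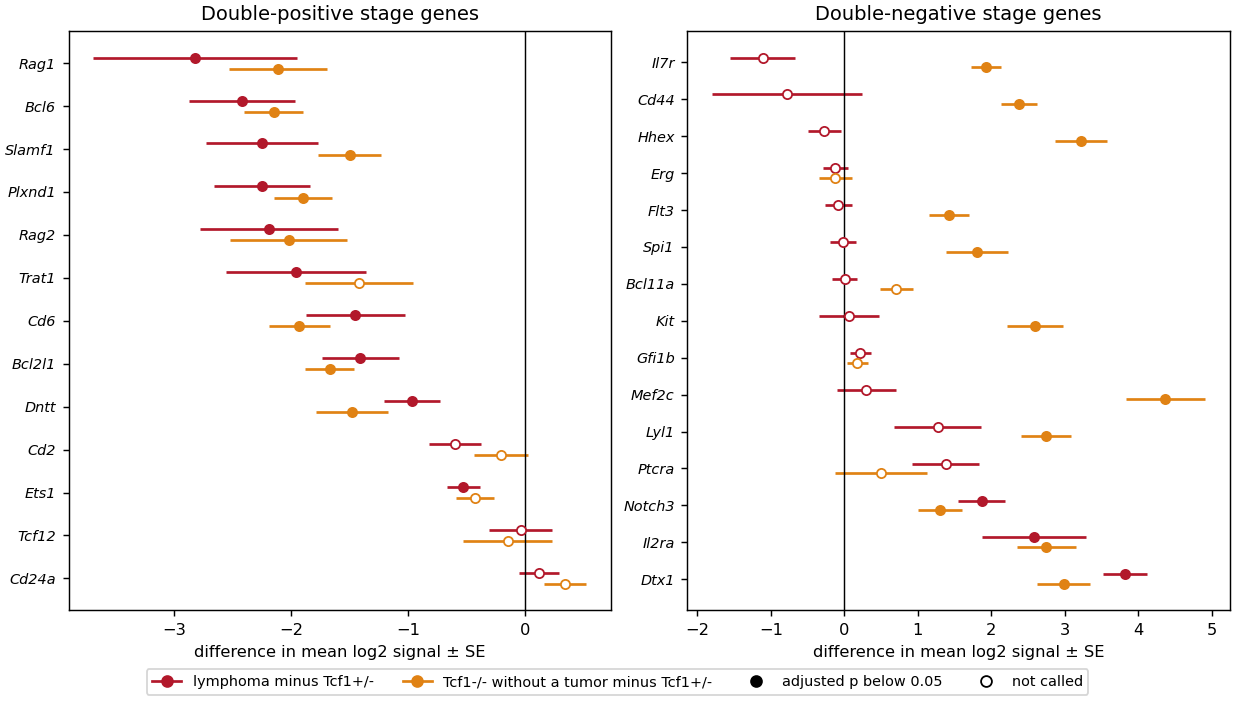
Differences in mean log2 signal with their SE (x axis) are plotted for genes of the DP stage (left) and of the DN stage (right), for lymphoma minus Tcf1+/- (red) and Tcf1-/- without a tumor minus Tcf1+/- (orange), with filled symbols for an adjusted p below 0.05. On the left both groups lie at or below 0 for most genes, and on the right Mef2c and Hhex lie far above 0 only in Tcf1-/- thymi without a tumor.

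A list of 16 genes held regulators of the coreceptors or of thymocyte development. Of these, 1 fell and 0 rose in lymphomas, beside 4.21% and 8.49% of all genes. In Tcf1-/- thymi 3 fell and 1 rose, beside 4.70% and 10.1% of all genes. Runx3, which silences Cd4 in CD8 T cells, rose by 1.95 in Tcf1-/- thymi (SE 0.31, adjusted p = 0.00226) and did not pass in lymphomas (adjusted p = 0.188). The mean of the NK-cell markers was also highest in Tcf1-/- thymi (8.4, with 6.19 in Tcf1+/- thymi and 4.94 in lymphomas). The part of NK and other cells in the level of Runx3 was not tested. Bcl11b, a factor of T-lineage identity, fell by 0.67 in lymphomas (SE 0.15) and fell by 0.97 in Tcf1-/- thymi (SE 0.25), and Hdac7 and Smarca4 fell in Tcf1-/- thymi (-0.98, SE 0.26, and -0.56, SE 0.16). Zbtb7b, Gata3, Tox and Runx1, which act in the choice between CD4 and CD8, passed in neither comparison.

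Of 11 genes of the T-cell receptor complex and its signaling partners, 2 fell in lymphomas and 3 in Tcf1-/- thymi. Beside this and the lists that follow, 4.21% of all genes fell and 8.49% rose in lymphomas. In Tcf1-/- thymi 4.70% of all genes fell and 10.1% rose. Cd247, the zeta chain, fell by 1.92 in lymphomas (SE 0.27) and fell by 1.65 in Tcf1-/- thymi (SE 0.16). Lcp2, an adaptor of receptor signaling, was at -1.15 in lymphomas (SE 0.35), and Cd3d and Cd3e were at -0.78 (SE 0.17) and -0.62 (SE 0.13) in Tcf1-/- thymi. Of 7 genes of lipid presentation and NKT cells, Egr2, a factor induced by receptor signals, fell by 2.37 in lymphomas (SE 0.38) and fell by 2.40 in Tcf1-/- thymi (SE 0.23), Fyn rose by 0.77 in each (SE 0.18 and 0.19), and Sh2d1a fell by 1.63 in Tcf1-/- thymi (SE 0.39). Of 10 genes of single-positive cells and their egress, 5 fell in lymphomas, with Ms4a4b at -3.26 (SE 0.47), Cd69 at -2.32 (SE 0.54), Ccr7 at -1.95 (SE 0.34), Cd5 at -1.77 (SE 0.50) and S1pr1 at -1.07 (SE 0.31). In Tcf1-/- thymi Cd5 fell by 2.07 (SE 0.33) while Klf2, Itgb7 and S1pr1 rose by 2.07 (SE 0.42), 1.77 (SE 0.27) and 1.76 (SE 0.41). The part of the other cell types whose markers rose in Tcf1-/- thymi was not tested for these genes either.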

How the data were processed

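RNA of thymus (homogenized thymus per the labels, thymocytes per the methods) was hybridized to 1 array per mouse. The deposited values are log2 signals that the authors obtained by RMA, which corrects background, normalizes between arrays and summarizes probes, so that a shift shared by most genes cannot be seen. The spread of the deposited values still differed between arrays, and quantile normalization was tried as an alternative. Groups were taken from the sample titles. Gene symbols came from GEO's platform annotation, in which 34958 probe sets carry a single symbol. A gene was tested if its signal exceeded the array's 40th percentile on 4 or more arrays. Each pair of groups was fitted separately with limma 3.58.1 in R 4.3.3 (empirical Bayes, Benjamini-Hochberg over 13756 genes, adjusted p under 0.05). Spread was fitted with limma on absolute deviations from the group median. Single genes were also compared by exact two-sided permutation tests, and correlations by exact permutation of pairings in Python 3.11.15. In simulated data the fits of group differences recovered known differences, while the fit of spread made no calls although some genes had been given a larger SD. The members and the gene lists were chosen with earlier results of these data known. Genes named are the 8 members, of each list the called genes with the largest differences (up to 5 per comparison), and for each member the 2 genes with the highest correlation over lymphomas. Siglech, Bst2, Klk1, Flt3, Dtx1 against Tcf1-/- thymi, and the uncalled regulators Zbtb7b, Gata3, Tox and Runx1 were named outside this rule, with their values known.

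Titles number the mice in each group, and pairing by number was checked on deviations from the group means. Correlations of same-numbered mice were 0.246 to 0.625 for 5 pairs of lymphoma and Tcf1+/- mice, -0.286 to 0.120 for 4 pairs of Tcf1-/- and Tcf1+/- mice, and -0.189 to 0.0913 for 4 pairs of lymphoma and Tcf1-/- mice. Of the 5 lymphomas with a shared number, only 2 correlated most closely with the Tcf1+/- mouse of the same number. Numbers 1 and 2 there are those of the narrow set, and the labels tie no number to a litter or day. These values therefore do not settle whether the numbers pair lymphoma and Tcf1+/- mice, and they give no sign of pairing in the others. The fits are without the block, whose values are given where a call changes. Precision is limited by how few mice each group holds, and p-values measure the spread between mice. The comparison of all probe sets of a gene and the SDs with single lymphomas left out were chosen after seeing the data.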

Additional observations from a re-analysis of the deposited data

Results flagged for a closer look

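In 24 groups of values (8 genes in 3 groups of mice), 5 values stood far from the others of their group by Dixon's criterion. Chance exceeds this criterion in about 1 in 20 groups. Lymphoma replicate 7 had a Cd8a signal of 6.57, with 9.56 in the next lymphoma. Tcf1-/- replicate 4 was low for Cd8a (10.13, next 11.25) and for Cd1d1 (8.61, next 9.22). Tcf1-/- replicate 1 was low for Themis (8.94, next 10.34). Tcf1+/- replicate 1 was low for Cd8a (12.77, next 13.03), and its array was 1 of the 4 of the narrow set. Without lymphoma replicate 7 the same 7 genes were called lower in lymphomas than in Tcf1+/- thymi. Without Tcf1-/- replicate 4, Cd1d1 was not called in Tcf1-/- thymi (difference -0.69, adjusted p = 0.0553).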

How the results depend on the processing

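The 8 genes kept the direction of their differences from Tcf1+/- thymi under every alternative. In lymphomas against Tcf1+/- thymi, 203 of 216 values of single genes stayed on the same side of the threshold, 6 lost their call and 7 gained one, all 7 of them for Arpp21. In Tcf1-/- against Tcf1+/- thymi these were 167 of 184, 16 and 1. The count of 7 genes called became 4 in lymphomas on adjustment for Y-linked signal, and 0 in Tcf1-/- thymi by the Mann-Whitney U test, for which 4 and 5 mice are too few to pass over all genes (lowest adjusted p 0.0917; 7 genes had an unadjusted p under 0.05). Leaving out 1 mouse gave 7 to 8 genes in lymphomas and 6 to 7 in Tcf1-/- thymi.

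Between lymphomas and Tcf1-/- thymi the count of called genes among the 8 was 0 to 1 on leaving out 1 mouse, the 1 being Cd4 without lymphoma 5. The small differences of Arpp21, Ccr9 and Cd1d1 changed sign. On leaving out 1 mouse, Arpp21 ranged from -0.41 to 0.44 and Ccr9 from -0.38 to 0.27. Ccr9 was 0.39 with the replicate block and in the same mice without it, 0.03 with median centring and 0.23 on adjustment for Y-linked signal, which gave 0.10 for Cd1d1. None of these passed.

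Over all genes, the number called in Tcf1-/- against Tcf1+/- thymi (2037) was 1257 with the replicate block, 0 by the Mann-Whitney U test, 1327 with an absolute log2 fold change of at least 1, and 3418 with the array set as a block. In lymphomas against Tcf1+/- thymi (1747) it was 853 with the added fold threshold, 3752 with the array set as a block, 1122 with Y-linked signal and 686 in mice of the shared numbers without a block, chosen after seeing the data. In lymphomas against Tcf1-/- thymi (2020) it was 1014 to 2203 on leaving out 1 mouse, lowest without Tcf1-/- replicate 1, and 584 with the replicate block, 1220 with the added fold threshold, 387 with Y-linked signal and 951 in mice of the shared numbers without a block. The causes were not tested. Besides Arpp21 in lymphomas, the replicate block changed the call of Cd1d1 in Tcf1-/- thymi (adjusted p = 0.133, and 0.0606 for the same mice without it) and no other call of the 8 genes.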
